A study of Mus musculus with 12 samples.

Results

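The genes described here encode subunits of potassium channels, the membrane proteins through which potassium leaves or enters cells. Members were the rows of the deposited expression table with a mouse gene symbol that starts with Kcn, followed by letters, a number and at most 1 letter. Kcnj8, the pore subunit of an ATP-sensitive channel, was left out by that rule. In all, 92 of the 37750 rows of the table were members, and 1 of them, Kcnab2, shared its row with the predicted gene Gm16334. Of the 92 members, 30 reached 1 FPKM in at least 4 of the 12 libraries and were tested. FPKM counts sequenced fragments for each kilobase of a transcript, relative to library size. The other 62 members, those below that filter, were not tested.

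The samples were liposarcomas (LPS, 8 libraries) from Ad/NICD mice 9 to 12 months of age and white adipose tissue (WAT, 4 libraries) from Ad/NICD mice 3 weeks of age. Both groups came from a 129 x C57BL/6 background, and both carried the Notch1 intracellular domain (NICD, also written N1ICD in the labels), the active form of the receptor Notch1. The series title speaks of mature adipocytes that transform to liposarcoma, and the comparison sets the tumours against the fat tissue. No source used here names the driver of the transgene, and no group without the transgene was analysed here. Tissue and age change together between the groups and cannot be told apart. The labels call the libraries biological replicates, without naming the animals.

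Potassium channels set the resting potential of a cell and bring it back after depolarisation. Voltage-gated channels (Kv) are built of pore subunits that open on depolarisation, inward rectifiers and the two-pore domain channels carry current near rest, and a further class opens when intracellular calcium or sodium rises. Modifier subunits form no channel alone, and accessory subunits change the gating or trafficking of a pore. In fat, adipocytes are known to carry Kv and leak currents, and in blood vessels pericytes and smooth muscle cells rely on ATP-sensitive, Kv7 and inward rectifier channels.

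Across the series, FPKM sums ran from 771665 to 996090 per library, and 12965 to 14248 rows reached 1 FPKM. The table gives no totals of fragments, and its low values showed that 1 fragment of a 2 kb transcript was worth 0.0181 FPKM in the deepest library and 0.047 FPKM in the shallowest. LPS 5 stood apart, since Gm10800, a predicted gene, took 361556 FPKM there and at most 3340 FPKM elsewhere. The tissue labels were compared with marker genes. All 8 adipocyte markers were lower in LPS, with a summed level of 76.2 to 2043 FPKM in LPS and 10724 to 13168 FPKM in WAT. Within LPS the adipocyte sum was highest in LPS 1 (2043 FPKM), LPS 3 (1247 FPKM) and LPS 7 (1101 FPKM), and at most 159 FPKM in the other tumours. These sums were mostly Fabp4, a fatty acid binding protein. Single markers ranked the tumours differently. Adipoq, Cfd, Cidec and Lep were highest in LPS 5, Plin1 and Fabp4 in LPS 1, and Lipe and Pnpla2 in LPS 7. All 8 pericyte markers were higher, at 3586 to 7611 FPKM in LPS and 174 to 196 FPKM in WAT. Another 6 lists had more lower than higher markers in LPS, namely endothelial (5 of 7 lower, 1 higher), fibroblast and adipose progenitor (5 of 6 lower), T and B lymphocyte (6 of 7 lower), Schwann cell (6 of 6 lower), mast cell (2 of 5 lower) and skeletal muscle (1 of 5 lower). All 3 cell cycle markers tested were higher. None of the 5 macrophage markers tested passed. The skeletal muscle list summed to 0.241 to 404 FPKM in LPS, against 1594 FPKM in WAT 1, 4.83 in WAT 2, 192 in WAT 3 and 1345 in WAT 4. Fewer cells of a type and less RNA per cell cannot be told apart in such bulk tissue.

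The most abundant potassium channel subunits differed between liposarcoma and fat, while their summed levels overlapped. The 92 members summed to between 83.7 and 179 FPKM in LPS and between 130 and 148 FPKM in WAT. Kcne4, an accessory subunit, was the most abundant member in 7 of 8 tumours, where it made up 22.6% to 49.5% of the sum. Kcnk3, a leak channel, came first in all 4 WAT libraries with 17.4% to 22.1% of the sum. By group means, Kcne4 (49.4 FPKM), Kcnh1 (5.64 FPKM) and Kcnj2 (5.45 FPKM) were among the 5 most abundant members in LPS, and Kcnk3 (28.6 FPKM), Kcnab2 (11.6 FPKM) and Kcna5 (7.66 FPKM) in WAT. FPKM is a level per transcript length, so these levels can be compared between genes.

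**Figure D1:**
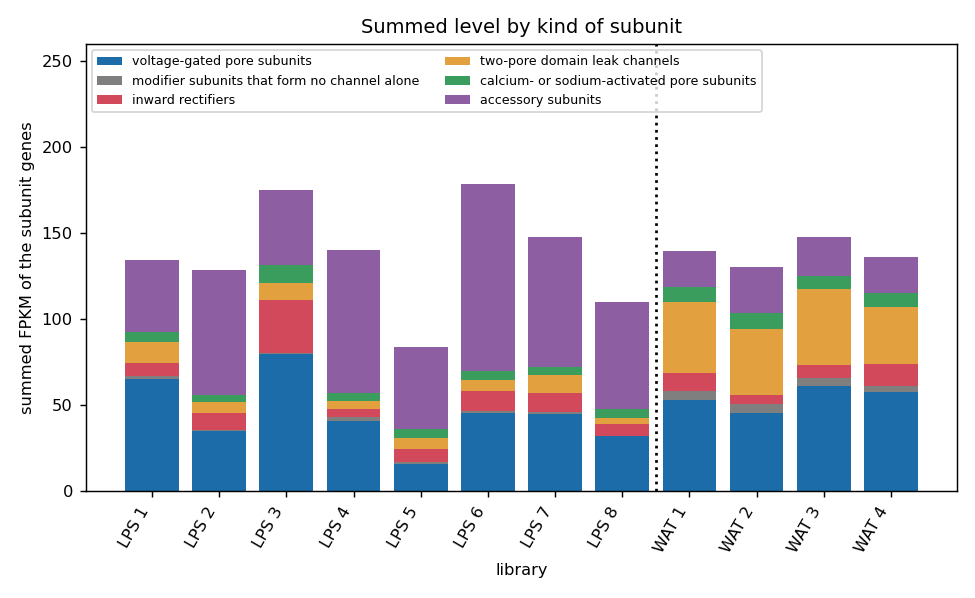
Summed FPKM of the 92 subunit genes in each library (horizontal axis, 8 LPS left and 4 WAT right of the dotted line), stacked by kind of subunit. Accessory subunits take 41.8 to 109 FPKM in LPS and 20.8 to 26.5 FPKM in WAT, while two-pore domain channels take 3.71 to 12.3 FPKM in LPS and 33 to 43.9 FPKM in WAT.

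By limma on log2(FPKM + 1) with Benjamini-Hochberg adjustment over 14821 rows at 0.05, 7 of the 30 tested members were higher in LPS and 14 were lower. Over all rows tested, 46% were called (18.9% higher and 27% lower), so the share of members called higher (7 of 30) lay near the background and the share called lower (14 of 30) above it. With quantile normalization, 12 members were higher and 14 lower, against 28.2% and 23.3% of all rows, and the median log2 difference of all rows was 0.10. The median log2 difference of the tested members was -0.31, against -0.05 over all rows tested. In 17 members the groups did not overlap, 5 with every LPS library above every WAT library and 12 with every LPS library below, where 11.8% and 20.9% of all rows did so (32.6% in either direction). Some members could hardly pass the filter without a difference. In all WAT libraries and in no LPS library, 9 reached 1 FPKM. In LPS alone 6 did, namely Kcnd1, Kcnd3, Kcne3, Kcnh1, Kcnip3 and Kcnt2, and 15 did in at least 1 library of each group. The counts above are therefore a description. Without LPS 5, 8 members were higher and 14 lower (21.7% and 26.9% of all rows). Without WAT 1 and WAT 4, the fat libraries with the most skeletal muscle RNA, 13 were lower and Kcne4 alone was still called higher. Over all rows, 19.3% were lower and 9.86% higher in that fit, which held fewer fat libraries.

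**Figure D2:**
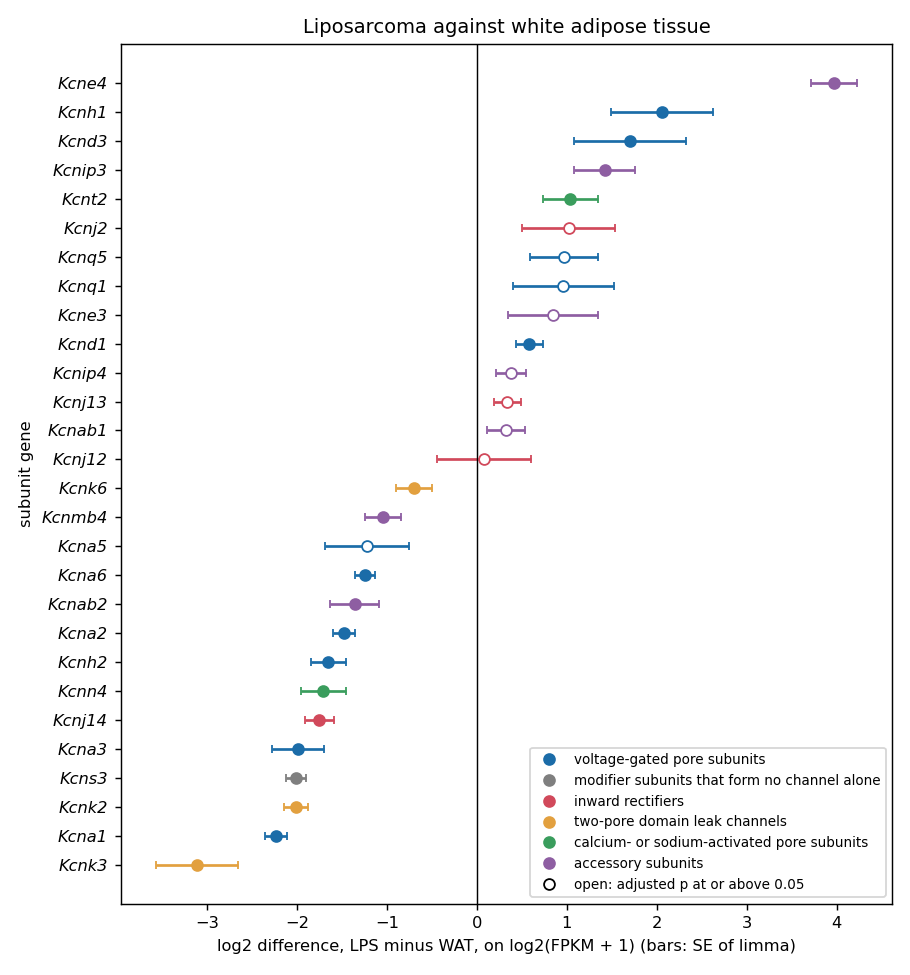
Log2 difference, LPS minus WAT, on log2(FPKM + 1) for 28 of the 30 tested members (vertical axis), with the standard error of limma as bars and colours by kind of subunit; open symbols mark members with an adjusted p at or above 0.05. Kcne4 lies at 3.97 at the top and Kcnk3 at -3.11 at the bottom, and all 3 two-pore domain channels lie below 0.

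Of the 16 accessory subunits, 7 were tested, of which 2 were higher, 2 were lower and 3 did not pass the test. Kcne4 encodes a small membrane-spanning protein that is known to damp several Kv channels. Kcne4 (chr1:78816949-78820024, plus strand, GRCm38) had 30.5, 51.1, 29.7, 63.8, 34.2, 88.4, 55.9 and 41.6 FPKM in LPS 1 to 8, against 1.68, 2.69, 1.97 and 1.85 FPKM in WAT 1 to 4. Every tumour lay far above the highest fat library. Its mean was 49.4 ± 20.1 FPKM in LPS (SD, n = 8) and 2.05 ± 0.444 FPKM in WAT (SD, n = 4), a ratio of 24.1 and a log2 difference of 3.97 ± 0.26 (SE, adjusted p = 7.98e-08 by limma). The pericyte markers moved with it: their sum was 3586 to 7611 FPKM in LPS and 174 to 196 FPKM in WAT, and their part in the level of Kcne4 was not tested.

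Kcnip3 encodes KChIP3, also known as DREAM, a calcium-binding protein that attaches to Kv4 pores and, in the nucleus, binds DNA. Kcnip3 (chr2:127456498-127522094, minus strand, GRCm38) had 0.708, 3.55, 3.64, 1.99, 1.87, 1.9, 8.45 and 2.31 FPKM in LPS 1 to 8 and 0.206, 0.447, 0.533 and 0.232 FPKM in WAT 1 to 4. LPS 7 was the highest and LPS 1 the lowest tumour, and the groups did not overlap. The means were 3.05 ± 2.38 FPKM in LPS and 0.354 ± 0.16 FPKM in WAT (SD, n = 8 and 4), with a log2 difference of 1.42 ± 0.34 (SE, adjusted p = 0.00456 by limma). Its relative Kcnip4 averaged 1.75 ± 0.571 FPKM in LPS and 1.11 ± 0.36 FPKM in WAT and did not pass the test (log2 difference 0.38 ± 0.17, adjusted p = 0.0885 by limma). Kcnip1 and Kcnip2 stayed below the filter.

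Kcnab2 and Kcnmb4 were the accessory subunits called lower. Kcnab2, the cytoplasmic beta subunit Kvbeta2 of Kv1 channels, averaged 4.22 ± 2.42 FPKM in LPS and 11.6 ± 2.24 FPKM in WAT (log2 difference -1.36 ± 0.27 SE, adjusted p = 0.00105 by limma). The groups overlapped through LPS 8 at 9.75 FPKM, since WAT 4 had 9.31 FPKM, and the row joins Kcnab2 with Gm16334. LPS 8 also had the highest skeletal muscle sum (404 FPKM) and mast cell sum (139 FPKM) among the tumours. Kcnab2 was at 11.3, 14.7, 11.2 and 9.31 FPKM in WAT 1 to 4, where the muscle sums were 1594, 4.83, 192 and 1345 FPKM. The part of either cell type in the LPS 8 value was not tested. Kcnmb4, the beta4 subunit of the large-conductance calcium-activated channel, averaged 0.393 ± 0.312 FPKM in LPS and 1.86 ± 0.605 FPKM in WAT (-1.04 ± 0.20 on the log2 scale, adjusted p = 7.15e-04 by limma). The groups did not overlap for Kcnmb4, and its pore partner Kcnma1 stayed below the filter at 0 to 0.834 FPKM in LPS and 0.573 to 1.4 FPKM in WAT. Kcnab1, the Kvbeta1 subunit, averaged 3.08 ± 1.24 FPKM in LPS and 2.19 ± 0.506 FPKM in WAT and did not pass the test (0.32 ± 0.21, adjusted p = 0.231 by limma).

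Of the 30 voltage-gated pore subunits, 13 were tested, of which 4 were higher, 6 were lower and 3 did not pass the test. Over all rows tested, 18.9% were higher and 27% lower. Pores of the Kv4 and EAG classes were among those higher, and 4 of the 6 called lower were Kv1 pores. Kcnd1, Kcnd3 and Kcnh1 passed the filter through LPS alone, and Kcna1, Kcna2, Kcna6 and Kcnh2, among others, through WAT alone.

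Kcnq1 and Kcnq5, the pores Kv7.1 and Kv7.5, did not pass the test but were uneven among tumours. Kcnq5 had 8.24, 1.94, 6.72, 1.15, 1.41, 1.45, 3.52 and 3.82 FPKM in LPS 1 to 8 and 1.25, 1.23, 0.678 and 0.952 FPKM in WAT 1 to 4 (log2 difference 0.97 ± 0.38 SE, adjusted p = 0.0534 by limma). Kcnq1 had 10.2, 3.51, 18.2, 1.64, 1.21, 0.931, 1.19 and 3.6 FPKM in LPS 1 to 8 and 1.31, 1.4, 1.2 and 0.893 FPKM in WAT 1 to 4 (0.96 ± 0.56, adjusted p = 0.179 by limma). LPS 1 and LPS 3 held the highest values of both Kcnq1 and Kcnq5. These were the tumours with the highest adipocyte marker sums, which were mostly Fabp4. In WAT, where these sums were 10724 to 13168 FPKM, Kcnq1 reached at most 1.4 FPKM and Kcnq5 at most 1.25 FPKM. The part of those markers was not tested. The Kcnq1 locus also holds rows for pieces of the antisense transcript Kcnq1ot1, with means over all libraries of 4.77 to 7.09 FPKM. The libraries are stranded per the labels, but no source used here says whether the authors quantified by strand, so the Kcnq1 level is uncertain.

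Kv4 pores, which carry fast transient current and bind KChIP proteins, were higher in LPS in both tested genes. Both reached 1 FPKM in LPS libraries alone and could hardly pass the filter without a difference. Kcnd3, encoding Kv4.3 (chr3:105441595-105674002, plus strand, GRCm38), had 14.1, 3.62, 9.51, 0.455, 0.614, 3.82, 6.88 and 0.404 FPKM in LPS 1 to 8, against 0.368, 0.221, 0.278 and 0.289 FPKM in WAT 1 to 4. LPS 1, LPS 3 and LPS 7 were highest, while LPS 4, LPS 5 and LPS 8 lay just above fat. The 3 highest were again the tumours with the highest adipocyte marker sums, mostly through Fabp4. LPS 5, the highest tumour for Adipoq, Cfd and Cidec, had 0.614 FPKM of Kcnd3. In WAT, where the adipocyte sums were 10724 to 13168 FPKM, Kcnd3 reached at most 0.368 FPKM. The part of adipocyte RNA in Kcnd3 was not tested. The means were 4.93 ± 4.95 FPKM in LPS and 0.289 ± 0.0604 FPKM in WAT (SD, n = 8 and 4), with a log2 difference of 1.70 ± 0.62 (SE, adjusted p = 0.0401 by limma). The call was lost when any 1 WAT library was left out (adjusted p = 0.0765 to 0.0837) or when LPS 1, 2, 3, 6 or 7 was (0.0517 to 0.0631), all by limma.

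Kcnd1, encoding Kv4.1 (chrX:7822289-7838280, plus strand, GRCm38), had 0.864, 1.23, 1.93, 1.5, 0.762, 1.03, 1.44 and 1.87 FPKM in LPS 1 to 8, against 0.595, 0.496, 0.51 and 0.524 FPKM in WAT 1 to 4. All tumours lay above all fat libraries, by a small step. The means were 1.33 ± 0.437 FPKM in LPS and 0.531 ± 0.0439 FPKM in WAT (SD, n = 8 and 4), and the log2 difference was 0.58 ± 0.15 (SE, adjusted p = 0.00779 by limma). Kcnd2, the third Kv4 pore, stayed below the filter.

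Kcnh1 encodes EAG1, a slowly activating pore that is known mainly from brain and from tumours. Kcnh1 (chr1:192190784-192510159, plus strand, GRCm38) had 1.33, 8.6, 0.823, 14.7, 2.84, 12.7, 2.78 and 1.33 FPKM in LPS 1 to 8 and 0.0779, 0.0962, 0.284 and 0.179 FPKM in WAT 1 to 4. The groups did not overlap, and LPS 2, LPS 4 and LPS 6 stood well above the other tumours. The means were 5.64 ± 5.57 FPKM in LPS and 0.159 ± 0.0942 FPKM in WAT (SD, n = 8 and 4), and the log2 difference was 2.06 ± 0.57 (SE, adjusted p = 0.00962 by limma). The same 3 tumours were highest for Kcne3, an accessory subunit of Kv7.1, named here after its values were seen. Kcne3 had 0.393, 8.7, 0.557, 4.74, 2.21, 6.04, 0.555 and 2.39 FPKM in LPS 1 to 8 and 0.636, 0.979, 0.891 and 0.834 FPKM in WAT 1 to 4, and it did not pass the test (0.85 ± 0.50, adjusted p = 0.181 by limma). In LPS 2, 4 and 6 the neuron list was also highest (83.6, 81.4 and 73 FPKM, against 3.33 to 4.59 FPKM in WAT), nearly all of it from Uchl1, a ubiquitin hydrolase (83.2, 81.1 and 72.7 FPKM). The other neuron markers were below 1 FPKM in LPS, at most 0.608 FPKM for Rbfox3, 0.2 for Snap25, 0.411 for Syt1 and 0.172 for Nefl. In WAT they reached at most 0.181, 2.54, 0.394 and 0.0587 FPKM, in the same order. Rbfox3 was at 0.455, 0.218 and 0.101 FPKM in LPS 2, 4 and 6 and highest in LPS 5. The part of neurons in these levels was not tested.

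**Figure D3:**
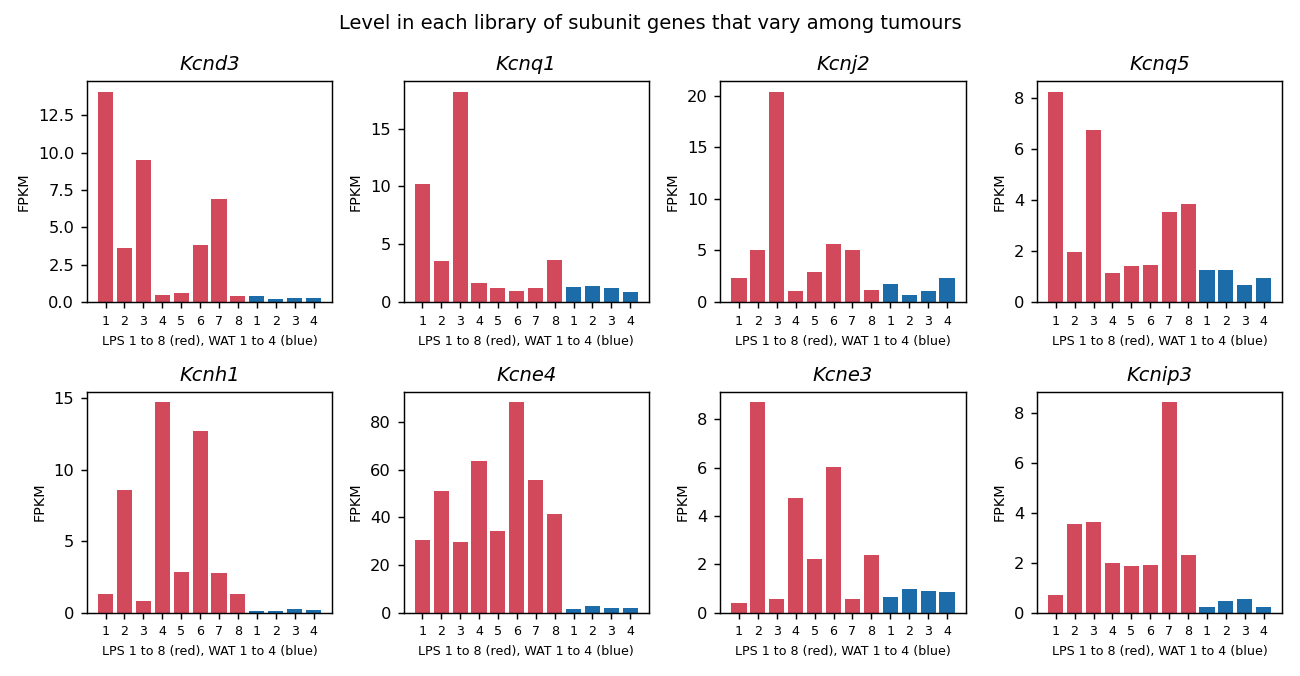
FPKM of 8 subunit genes that vary among tumours, 1 panel each with its own vertical axis, for LPS 1 to 8 (red, left) and WAT 1 to 4 (blue, right). Kcnd3 and Kcnq5 peak in LPS 1 (14.1 and 8.24 FPKM), Kcnq1 and Kcnj2 in LPS 3 (18.2 and 20.4 FPKM), Kcnh1 in LPS 4 (14.7 FPKM), Kcne4 in LPS 6 (88.4 FPKM), Kcne3 in LPS 2 (8.7 FPKM) and Kcnip3 in LPS 7 (8.45 FPKM).

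The start regions of subunit genes that were higher are shown because NICD acts through the DNA-binding protein RBPJ, whose binding motif holds the letters TGGGAA. Windows from 250 bases before to 50 bases after a transcript start were taken from RefSeq on GRCm38.p6, each written 5' to 3' on the strand of the gene, with TGGGAA on either strand (TTCCCA on the opposite one) in capitals. Kcne4 (chr1:78816661-78816960, plus strand) holds no match, Kcnd3 (chr3:105451640-105451939, plus strand) holds 1 with its first base at position -170 from the start, and Kcnip3 (chr2:127522045-127522344, minus strand, the most upstream of its 3 windows) holds 2. The other windows of Kcnip3 hold 1 and 0 matches, and of the windows not printed, that of Kcnh1 holds 0 and that of Kcnt2 holds 1.
Kcne4: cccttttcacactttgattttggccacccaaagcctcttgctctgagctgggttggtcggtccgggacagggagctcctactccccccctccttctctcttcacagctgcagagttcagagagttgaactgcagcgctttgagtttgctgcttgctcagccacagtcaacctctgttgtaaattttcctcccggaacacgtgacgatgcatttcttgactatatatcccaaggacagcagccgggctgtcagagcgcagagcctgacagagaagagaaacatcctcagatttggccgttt
Kcnd3: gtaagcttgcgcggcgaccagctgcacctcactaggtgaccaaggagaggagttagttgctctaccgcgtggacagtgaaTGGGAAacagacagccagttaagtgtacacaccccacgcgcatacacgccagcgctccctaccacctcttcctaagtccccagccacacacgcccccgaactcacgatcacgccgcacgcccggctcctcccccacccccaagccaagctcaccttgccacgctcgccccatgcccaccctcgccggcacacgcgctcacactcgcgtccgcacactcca
Kcnip3: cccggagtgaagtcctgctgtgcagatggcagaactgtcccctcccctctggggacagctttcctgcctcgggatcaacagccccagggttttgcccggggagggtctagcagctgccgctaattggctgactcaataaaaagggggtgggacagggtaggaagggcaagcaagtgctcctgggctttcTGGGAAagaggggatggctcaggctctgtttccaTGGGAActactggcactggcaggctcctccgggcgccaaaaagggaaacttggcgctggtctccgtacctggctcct
Windows were found for 67 of the 92 members, 92 windows in all, and 24 of these (26.1%) held TGGGAA, against 25.4% of all 32544 windows in the reference. The longer form GTGGGAA was in 5 member windows (5.43%) and in 6.39% of all windows, and among tested members it was found for Kcna5, Kcnab1, Kcnab2 and Kcnh2, none of which was called higher. Among the 22 tested members with windows, 12 of 35 windows held the shorter form. Both groups carried NICD, and these matches are a description of letters. No window was listed for Kcnk3, Kcna1, Kcnj14 and Kcnd1.

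Kcns3 encodes Kv9.3, a silent subunit that joins other pores and changes their gating, and it was the only one of 10 modifier subunits to be tested. Kcns3 (chr12:11090202-11150842, minus strand, GRCm38) had 0.0345, 0, 0, 0.0262, 0.251, 0.0191, 0.0992 and 0.0206 FPKM in LPS 1 to 8 and 3.32, 3.5, 3.66 and 2.55 FPKM in WAT 1 to 4. The tumours lay near the worth of a few fragments. The log2 difference was -2.01 ± 0.11 (SE, adjusted p = 1.83e-08 by limma), with means of 0.0563 ± 0.0846 FPKM in LPS and 3.26 ± 0.492 FPKM in WAT (SD, n = 8 and 4). Amigo1, an adhesion protein that sits with Kv channels and is no member, averaged 0.572 ± 0.344 FPKM in LPS and 3.72 ± 0.963 FPKM in WAT (-1.59 ± 0.19, adjusted p = 1.56e-05 by limma). The adipocyte markers moved with these genes between the groups, and their part was not tested.

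Kv1 pores, known from axons and from immune cells, were lower in LPS in 4 of the 5 tested, where 27% of all rows were lower. Kcna1, Kcna2 and Kcna6 reached 1 FPKM in WAT alone and could hardly pass the filter without a difference. Kcna1 encodes Kv1.1 of axons. Kcna1 (minus strand, in a row that spans chr6:126532553-126698192 on GRCm38) had 0.0108, 0.00645, 0.00658, 0.0166, 0.146, 0, 0.0257 and 0.0196 FPKM in LPS 1 to 8, against 3.39, 3.69, 5.22 and 3.27 FPKM in WAT 1 to 4. Tumours and fat were far apart, and LPS 5 was the highest tumour. The means were 0.029 ± 0.0481 FPKM in LPS and 3.89 ± 0.9 FPKM in WAT (SD, n = 8 and 4), with a log2 difference of -2.23 ± 0.12 (SE, adjusted p = 1.02e-08 by limma). Kcna5, encoding Kv1.5, has a row with the same span and strand, so how reads were split between Kcna1 and Kcna5 bears on both levels.

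Kcna5 itself did not pass the test. It had 0.491, 3.17, 2.18, 6.62, 1.48, 1, 11.6 and 2.53 FPKM in LPS 1 to 8, against 8.69, 5.93, 9.19 and 6.81 FPKM in WAT 1 to 4 (log2 difference -1.22 ± 0.47 SE, adjusted p = 0.0509 by limma). LPS 7 lay above all fat libraries and LPS 4 within their range. Without LPS 7 the adjusted p was 0.00589, and without LPS 4 it was 0.0304, both by limma.

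Kcna2 and Kcna6 are further Kv1 pores of neurons. Kcna2 averaged 0.0344 ± 0.0389 FPKM in LPS and 1.93 ± 0.558 FPKM in WAT (log2 difference -1.48 ± 0.12 SE, adjusted p = 5.61e-07 by limma). Kcna6 averaged 0.0521 ± 0.0675 FPKM in LPS and 1.5 ± 0.342 FPKM in WAT (-1.24 ± 0.11, adjusted p = 1.20e-06 by limma). Both groups stood apart without overlap for each gene, with at most 0.0917 FPKM of Kcna2 and 0.141 FPKM of Kcna6 in any tumour. Schwann cell markers, of the glia that wrap peripheral axons, were lower in LPS as well. Their sum was 5.1 to 34.8 FPKM in LPS and 222 to 301 FPKM in WAT. Mbp, a myelin protein, was at 0.542 to 3.57 FPKM in LPS and 45.4 to 58.4 FPKM in WAT. Among tumours the Schwann cell sum was highest in LPS 3 (34.8 FPKM) and LPS 1 (25.9 FPKM), where Kcna6 was listed at 0. Kcna2 was at 0 FPKM in LPS 3 and 0.0821 FPKM in LPS 1. Adipocyte markers and most fibroblast and lymphocyte markers were also lower in LPS. The part of any of these cells was not tested.

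Kcna3 and Kcnn4, known together as the channels Kv1.3 and KCa3.1 of lymphocytes and macrophages, were lower in LPS and shared their highest tumours. Kcna3 (chr3:106934382-107098401, plus strand, GRCm38) had 2.11, 0.276, 0.445, 0.101, 0.587, 0.464, 1.67 and 0.159 FPKM in LPS 1 to 8 and 4.36, 8.13, 5.23 and 4.47 FPKM in WAT 1 to 4. Kcnn4 (chr7:24370263-24385209, plus strand, GRCm38) had 1.96, 0.416, 1.24, 0.23, 1.22, 0.85, 1.45 and 0.303 FPKM in LPS 1 to 8 and 4.98, 7.27, 4.63 and 4.07 FPKM in WAT 1 to 4. The Kcna3 locus overlaps AI504432, on the same strand, with a mean of 1.48 FPKM over all libraries. LPS 1 and LPS 7 were the highest tumours and WAT 2 the highest fat library for both genes. Kcna3 averaged 0.727 ± 0.746 FPKM in LPS and 5.55 ± 1.76 FPKM in WAT (SD, n = 8 and 4), a log2 difference of -1.99 ± 0.29 (SE, adjusted p = 8.66e-05 by limma). Kcnn4 averaged 0.958 ± 0.616 FPKM in LPS and 5.24 ± 1.41 FPKM in WAT, a log2 difference of -1.71 ± 0.25 (SE, adjusted p = 9.25e-05 by limma). The T and B lymphocyte list summed to 2.17 to 51.1 FPKM in LPS and 64.6 to 127 FPKM in WAT. It was highest in LPS 7 (51.1 FPKM, of which Cd4 was 48.2) and LPS 1 (15.4 FPKM) among tumours, and in WAT 2 (127 FPKM) among fat libraries. The macrophage list, at 83.3 to 297 FPKM in LPS and 106 to 186 FPKM in WAT, had 0 of 5 markers called. It was also highest in LPS 1 (297 FPKM) and WAT 2 (186 FPKM) within their groups, and LPS 7 had 139 FPKM. The part of lymphocytes or macrophages in both genes was not tested.

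Kcnh2, the ERG1 pore that repolarises heart cells, was the last voltage-gated pore called lower. It averaged 0.122 ± 0.0637 FPKM in LPS and 2.73 ± 1.55 FPKM in WAT (log2 difference -1.65 ± 0.19 SE, adjusted p = 9.13e-06 by limma). The WAT libraries were uneven, with WAT 4 at 5 FPKM and WAT 2 lowest at 1.53 FPKM, and the groups did not overlap. WAT 4 was also 1 of the 2 fat libraries with the most skeletal muscle RNA, at 1345 FPKM over that list, and WAT 1, with 1594 FPKM, had 2.24 FPKM of Kcnh2.

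**Figure D4:**
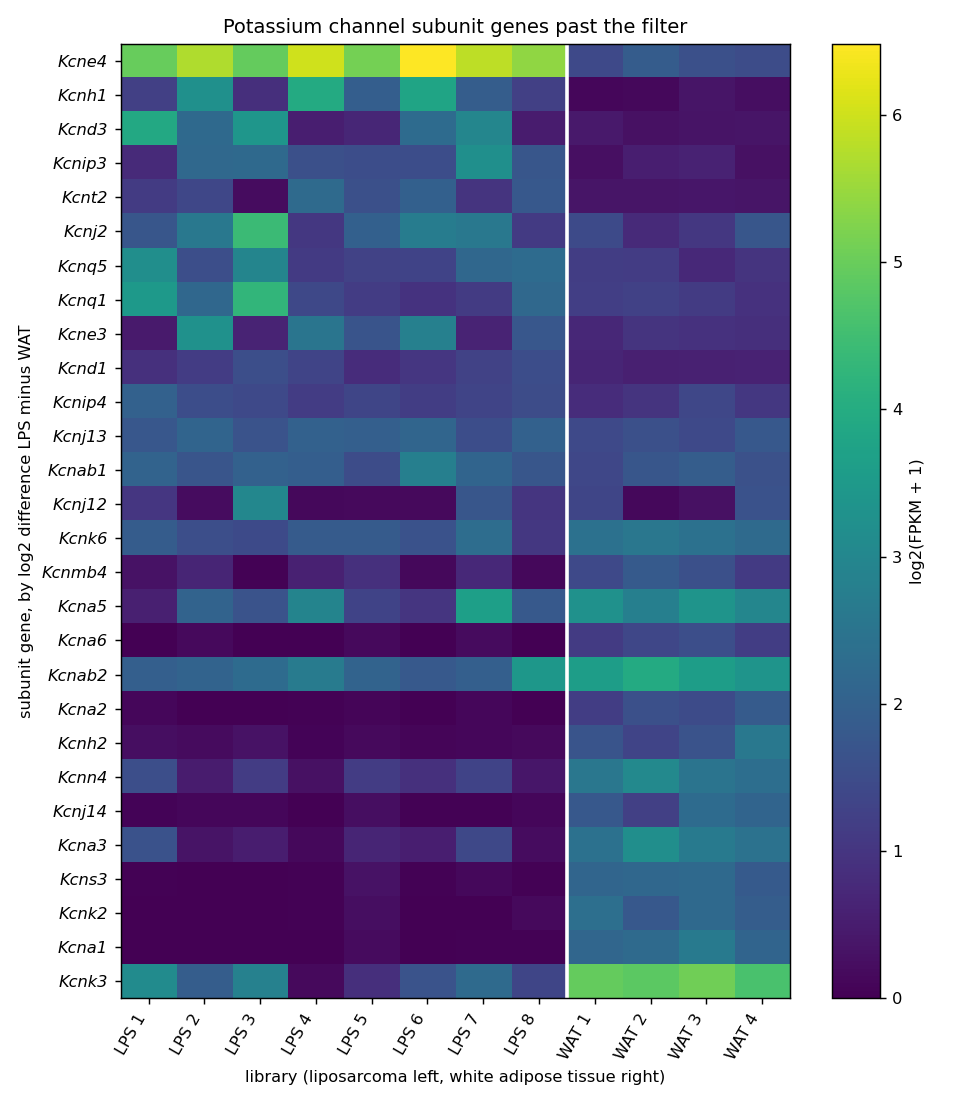
Level of 28 of the 30 tested subunit genes on the log2(FPKM + 1) scale (colour) in each library (8 LPS left and 4 WAT right of the white line), ordered by log2 difference. The top row, Kcne4, is brightest in LPS, the bottom row, Kcnk3, is brightest in WAT, and single tumours stand out in Kcnj2 (LPS 3, 20.4 FPKM) and Kcna5 (LPS 7, 11.6 FPKM).

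Channels of the two-pore domain class leak potassium at rest. Of their 14 members, 3 were tested and all 3 were lower in LPS, where 27% of all rows were lower. Kcnk2 reached 1 FPKM in WAT alone and could hardly pass the filter without a difference. Kcnk3 encodes TASK-1, an acid-sensitive leak channel described in mouse brown fat as a brake on thermogenesis. Kcnk3 (chr5:30588170-30625270, plus strand, GRCm38) had 7.73, 2.74, 6.15, 0.129, 0.836, 2.14, 3.72 and 1.56 FPKM in LPS 1 to 8, against 30, 27.9, 32.6 and 23.8 FPKM in WAT 1 to 4. Every tumour lay below every fat library. LPS 1, LPS 3 and LPS 7 were the highest tumours, in the order of their adipocyte marker sums, which were mostly Fabp4. LPS 5, the highest tumour for Adipoq, Cfd and Cidec, had 0.836 FPKM of Kcnk3. The part of adipocyte RNA was not tested. The means were 3.13 ± 2.63 FPKM in LPS and 28.6 ± 3.72 FPKM in WAT (SD, n = 8 and 4), so that WAT had 9.14 times the level of LPS, and the log2 difference was -3.11 ± 0.46 (SE, adjusted p = 1.02e-04 by limma).

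Kcnk2 encodes TREK-1, a leak channel opened by stretch and lipids. Kcnk2 (chr1:189207931-189343832, minus strand, GRCm38) had 0, 0, 0, 0.0221, 0.174, 0, 0.0141 and 0.125 FPKM in LPS 1 to 8, against 4.14, 2.42, 3.61 and 2.78 FPKM in WAT 1 to 4. It was listed at 0 in 4 tumours and at 2.42 FPKM or more in all fat libraries. The means were 0.0419 ± 0.0682 FPKM in LPS and 3.24 ± 0.78 FPKM in WAT (SD, n = 8 and 4), with a log2 difference of -2.01 ± 0.13 (SE, adjusted p = 4.58e-08 by limma). Kcnk6, encoding TWIK-2, differed less: it averaged 2.36 ± 0.871 FPKM in LPS and 4.33 ± 0.52 FPKM in WAT, and LPS 7 (4.02 FPKM) lay above WAT 4 (3.69 FPKM). Its log2 difference was -0.70 ± 0.20 (SE, adjusted p = 0.0119 by limma).

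Of the 14 inward rectifiers, which pass potassium more readily into the cell than out of it, 4 were tested and 1 was lower. Kcnj14, encoding Kir2.4 (chr7:45816461-45824756, minus strand, GRCm38), had 0.0369, 0.0867, 0.0903, 0, 0.185, 0.0202, 0.0353 and 0.0894 FPKM in LPS 1 to 8, against 2.47, 1.35, 3.83 and 3.24 FPKM in WAT 1 to 4. No tumour came near the fat libraries. The means were 0.068 ± 0.0585 FPKM in LPS and 2.72 ± 1.07 FPKM in WAT (SD, n = 8 and 4), and the log2 difference was -1.75 ± 0.16 (SE, adjusted p = 1.82e-06 by limma).

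Kcnj2, encoding Kir2.1, a main carrier of the resting current in muscle and endothelium, did not pass the test. It had 2.34, 5.01, 20.4, 1.07, 2.94, 5.6, 5.07 and 1.13 FPKM in LPS 1 to 8 and 1.76, 0.696, 1.08 and 2.35 FPKM in WAT 1 to 4 (log2 difference 1.02 ± 0.52 SE, adjusted p = 0.129 by limma). LPS 3 stood far above the rest, as it did for its relative Kcnj12, encoding Kir2.2, named after its values were seen. Kcnj12 had 1.03, 0.16, 7.05, 0.103, 0.128, 0.123, 2.32 and 1 FPKM in LPS 1 to 8 and 1.56, 0.0965, 0.228 and 2.12 FPKM in WAT 1 to 4 (0.08 ± 0.52, adjusted p = 0.918 by limma). The high fat libraries for Kcnj12 were WAT 1 and WAT 4, those with the most skeletal muscle RNA, and its part was not tested. Kcnj13, encoding Kir7.1, averaged 2.75 ± 0.54 FPKM in LPS and 1.96 ± 0.333 FPKM in WAT and did not pass (0.34 ± 0.15, adjusted p = 0.0773 by limma). The Kcnj13 row lies within the locus of Gigyf2 on the opposite strand, which had a mean of 37.5 FPKM over all libraries, so its level is uncertain.

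Of the 8 calcium- or sodium-activated pore subunits, 2 were tested. Kcnn4 was lower, as given above with Kcna3, and Kcnt2 was higher. Kcnt2 encodes SLICK, a sodium-activated pore. Kcnt2 (chr1:140246216-140612063, plus strand, GRCm38) had 1.2, 1.59, 0.167, 3.73, 1.97, 2.99, 0.952 and 2.45 FPKM in LPS 1 to 8 and 0.29, 0.295, 0.31 and 0.295 FPKM in WAT 1 to 4. Here LPS 3 was the 1 tumour below the fat libraries. The means were 1.88 ± 1.15 FPKM in LPS and 0.298 ± 0.00887 FPKM in WAT (SD, n = 8 and 4), and the log2 difference was 1.04 ± 0.31 (SE, adjusted p = 0.0142 by limma).

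The 62 members below the filter came from all 6 kinds of subunit. The voltage-gated pores among them included Kcna4, Kcna7, Kcna10, Kcnb2, Kcnc1, Kcnc2, Kcnc4, Kcnd2, Kcnh3, Kcnh4, Kcnh5, Kcnh6, Kcnh7, Kcnh8 and Kcnq3. The modifiers were Kcnf1, Kcng1, Kcng2, Kcng3, Kcng4, Kcns1, Kcns2, Kcnv1 and Kcnv2, and the inward rectifiers were Kcnj1, Kcnj3, Kcnj4, Kcnj5, Kcnj6, Kcnj9, Kcnj10, Kcnj11, Kcnj15 and Kcnj16. The two-pore domain channels were Kcnk1, Kcnk4, Kcnk5, Kcnk7, Kcnk9, Kcnk10, Kcnk12, Kcnk13, Kcnk15, Kcnk16 and Kcnk18. The calcium- or sodium-activated pores were Kcnma1, Kcnn1, Kcnn2, Kcnn3, Kcnt1 and Kcnu1, and the accessory subunits were Kcnab3, Kcne1, Kcne1l, Kcne2, Kcnip1, Kcnip2, Kcnmb1, Kcnmb2 and Kcnmb3. Of the 62, 44 never reached 1 FPKM and 18 reached it in 1 to 3 libraries. Kcna10 and Kcnk16 were listed at 0 in all 12 libraries.

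At the edge of the filter, 5 members reached 1 FPKM in 3 libraries. Kcnk5, encoding TASK-2, had 0.123 to 0.636 FPKM in LPS and 0.885 to 1.57 FPKM in WAT. Kcnk13, encoding THIK-1, had 0.382 to 1.45 FPKM in LPS and 0.237 to 0.412 FPKM in WAT. Kcnmb1, the beta1 subunit of smooth muscle, had 0.0577 to 1.31 FPKM in LPS and 0.134 to 0.395 FPKM in WAT. The beta subunit Kcnab3 had 0.283 to 1.43 FPKM in LPS and 0.263 to 1.39 FPKM in WAT. Kcnq3, encoding Kv7.3, was at 10.8 FPKM in LPS 6, 3.69 in LPS 4 and 1.37 in LPS 8, at most 0.31 FPKM in the other tumours and at most 0.328 FPKM in WAT. Just inside the filter, at 4 libraries, lay Kcna1, Kcna2, Kcna6, Kcnh2, Kcnj14, Kcnk2, Kcnmb4 and Kcns3 among others, all through the 4 WAT libraries.

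Single libraries carried several of the members below the filter. Kcnn3, a small-conductance calcium-activated pore, reached 8.78 FPKM in LPS 3 and at most 1.19 FPKM in the other tumours, against 0.194 to 0.543 FPKM in WAT. The tumour LPS 3 was thus highest for Kcnn3 as well as for Kcnq1, Kcnj2 and Kcnj12. Kcnj11, the pore Kir6.2 of muscle and beta cells, had at most 0.734 FPKM in LPS (LPS 8), against 1.94, 0, 0.198 and 1.55 FPKM in WAT 1 to 4. Kcna7, a muscle pore, had at most 0.754 FPKM in LPS (LPS 8), against 1.39, 0, 0.144 and 1.76 FPKM in WAT 1 to 4. Kcnc4 had at most 0.66 FPKM in LPS (LPS 8), and 1.91 FPKM in WAT 1 and 1.08 FPKM in WAT 4. For all 3 the high libraries were those with the highest skeletal muscle sums of their group (404 FPKM in LPS 8, 1594 in WAT 1 and 1345 in WAT 4), and the part of muscle RNA was not tested.

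Related lists put the members beside other genes of ion transport. Of 16 channel partners in the table with names outside Kcn, 7 were tested, of which 3 were higher and 2 lower, with a median log2 difference of 0.29. The higher ones were Kcnj8, at 518 ± 171 FPKM in LPS and 11.2 ± 0.66 FPKM in WAT, its sulfonylurea receptor partner Abcc9, and Hcn2, a cation channel of pacemaker cells. Hcn2 averaged 3.27 ± 2.74 FPKM in LPS and 0.764 ± 0.111 FPKM in WAT (log2 difference 1.06 ± 0.38 SE, adjusted p = 0.0362 by limma). Kcnj8 at its lowest tumour value, 215 FPKM, exceeded the summed level of all 92 members in every library. The lower ones were Amigo1 and Tmem38a, a cation channel of the muscle endoplasmic reticulum, which averaged 2.04 ± 1.67 FPKM in LPS and 14 ± 12.3 FPKM in WAT (-1.90 ± 0.56, adjusted p = 0.0145 by limma).

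Of 14 pump and carrier genes in the table, which build and use the potassium gradient, 12 were tested, of which 4 were higher, 3 lower and 5 not called, with a median log2 difference of -0.12. Atp1b2, a beta subunit of the sodium-potassium pump, averaged 63.9 ± 20.3 FPKM in LPS and 3.63 ± 1.51 FPKM in WAT (3.80 ± 0.27, adjusted p = 1.51e-07 by limma). Slc12a2, the carrier NKCC1 that takes up sodium, potassium and chloride, averaged 201 ± 140 FPKM in LPS and 12.2 ± 2.39 FPKM in WAT (3.70 ± 0.41, adjusted p = 8.47e-06 by limma). Fxyd2, a regulator of the pump, also passed (1.01 ± 0.36, adjusted p = 0.0342 by limma). Its relative Fxyd1 was lower, at 13.3 ± 6.38 FPKM in LPS and 63.8 ± 7.78 FPKM in WAT (-2.35 ± 0.39, adjusted p = 2.83e-04 by limma). Fxyd6 (-1.67 ± 0.37, adjusted p = 0.00258 by limma) and the pump subunit Atp1b3 (-0.82 ± 0.14, adjusted p = 2.80e-04 by limma) were lower too.

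Of 22 voltage-gated calcium channel subunits, 12 were tested, of which 4 were higher, 2 lower and 6 not called, with a median log2 difference of 0.22. Cacna1c, the L-type pore of smooth and heart muscle, averaged 18.7 ± 6.95 FPKM in LPS and 2.19 ± 0.181 FPKM in WAT (2.54 ± 0.27, adjusted p = 6.78e-06 by limma). Cacna1h, a T-type pore, averaged 14.7 ± 13.1 FPKM in LPS and 0.752 ± 0.288 FPKM in WAT (2.54 ± 0.75, adjusted p = 0.0146 by limma). Cacna2d1, an accessory subunit, averaged 26.9 ± 12.9 FPKM in LPS and 5.35 ± 2.7 FPKM in WAT (2.12 ± 0.36, adjusted p = 3.01e-04 by limma). The lower ones were Cacna1s, the pore of skeletal muscle (-1.63 ± 0.58, adjusted p = 0.035 by limma), and Cacnb3 (-0.68 ± 0.20, adjusted p = 0.0157 by limma). Pericyte markers moved with the higher genes of these lists, of which Abcc9 is itself 1 of the 8 markers, and skeletal muscle RNA was uneven among the fat libraries for Tmem38a and Cacna1s. Their part was not tested.

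Within the tumours, whose mice were 9, 10, 11 or 12 months old, no member passed the test for a change with age. Of the 20 members tested (at least 1 FPKM in 4 of the 8 LPS libraries), 0 had a slope per month with an adjusted p below 0.05 by limma and 0 had an unadjusted p below 0.05, while over 13280 rows 0% passed the adjusted test and 1.72% had an unadjusted p below 0.05. The lowest unadjusted p was 0.169, for Kcnj2 (log2 slope -0.47 per month) and Kcnk6 (0.19 per month). With 8 tumours at 4 ages, slopes of such sizes could not be told from 0.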

How the data were processed

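Libraries were stranded and made from total RNA after removal of ribosomal RNA, per the labels' protocols. The deposited table gives FPKM values that the authors made, with 1 row per gene locus. The submitters' processing notes list GRCm38 as build and, among the tools, Cufflinks 2.2.1, Cuffdiff 2.2.1, TopHat2 2.1.0, Bowtie2 and Trimmomatic. They give no roles, and a further scaling between libraries is not stated. The table holds no counts, so no count test or counting interval is given. A listed 0 can be a failed estimate.

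From these values, limma 3.58.1 in R 4.3.3 was run on log2(FPKM + 1) with empirical Bayes (trend and robust options, two-sided tests). Rows entered the fit where 4 or more of the 12 libraries reached 1 FPKM. This scale understates differences of genes near or below 1 FPKM. The fit held the group alone. Within LPS, a slope on age was fitted separately. Both fits were tested on simulated data. Rows that join several names (828) stayed in the fits, and Kcnab2 is such a row. P-values measure the spread between these libraries. Depth was gauged as the 5th percentile of non-zero FPKM times length over 2154 single-transcript genes above 2000 bases. Starts were counted from 1, and gene strands came from GENCODE M21, in which all 92 members matched a gene and 30 had the same ends. Promoter windows came from RefSeq.

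Members, gene lists and tests were chosen with earlier results of these data known. The text names every called member, the 6 most abundant members not called, all members below the filter and, from related lists, the 3 called genes with the largest differences each way, but a few of these are not reported here. Values in every library are given for the 8 called members with the largest differences each way. Values by library of Kcna5, Kcnj2, Kcnq1, Kcnq5 and of members below the filter, and all values of Kcne3, Kcnip4 and Kcnj12, were added after they were seen. Alternatives covered pseudocounts, filters, scalings, weights, an exact permutation test, covariates and leaving out each library.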

Additional observations from a re-analysis of the deposited data

Results flagged for a closer look

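Dixon's test of the highest or lowest library within a group was applied to FPKM in 54 groups of named members, and 6 values passed it. Chance gives about 1 in 20 where values are normally distributed, which FPKM need not be. The count is therefore a description, and all 6 were high values in LPS. Kcnip3 had 8.45 FPKM in LPS 7, where its range over the other LPS libraries was 0.708 to 3.64 FPKM. Kcnab2, a joined row, had 9.75 FPKM in LPS 8 (2.53 to 5.47 FPKM elsewhere in LPS). Kcnj2 had 20.4 FPKM in LPS 3 (1.07 to 5.6 FPKM elsewhere). Kcnab1 had 5.9 FPKM in LPS 6, above a range of 1.86 to 3.25 FPKM elsewhere. Kcna1 had 0.146 FPKM in LPS 5 (0 to 0.0257 FPKM elsewhere in LPS), and Kcns3 had 0.251 FPKM in LPS 5 (0 to 0.0992 FPKM elsewhere in LPS). LPS 5 is the library in which Gm10800 took 361556 FPKM. The median ratio of LPS 5 to the geometric mean of all libraries was 0.806, below the 0.988 to 1.05 of the other libraries. The part of Gm10800 in these values was not tested.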

How the results depend on the processing

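Over the alternatives run for each, none of the 27 members that were called or among the 6 most abundant not called reversed its direction. Apart from the test against a log2 difference of 1, 14 of the 21 called members, 13 lower and Kcne4, kept their call throughout. That test left 1 higher and 9 lower (2.92% and 7.84% of all rows). With no filter, 6 of 90 members were higher and 29 lower (9.52% and 19.4% of all rows), and the median log2 difference was -0.04. With a mean of at least 5 FPKM, 5 members remained, 2 higher and 3 lower (20.6% and 24.9% of all rows), with a median of -1.36. Quantile normalization gave 12 higher (28.2% of all rows), and array quality weights gave 11 higher and 15 lower (27.2% and 31.3% of all rows). Without joined rows the median was 0.08. Leaving out each library in turn gave 6 to 8 higher (15% to 21.7% of all rows) and 14 to 15 lower (23.5% to 27.4%). The medians were then -0.44 to -0.23, with 0 to 0 age slopes. Leaving out WAT 1 and WAT 4 together, the libraries richest in skeletal muscle RNA, was chosen after seeing the data. It left 1 higher and 13 lower (9.86% and 19.3% of all rows). There adjusted p was 0.0824 for Kcnh1, 0.167 for Kcnd3, 0.0719 for Kcnip3, 0.101 for Kcnt2, 0.0607 for Kcnd1 and 0.0574 for Kcnk6, by limma with fewer fat libraries. By the exact permutation test 5 were higher and 14 lower (17% and 25.7% of all rows), and Kcnd3 (adjusted p = 0.058) was among those lost. Kcnq5 passed under 8 alternatives (adjusted p = 0.00853 to 0.0464 by limma). The cause of these shifts was not tested.

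Same-numbered libraries hardly deviated together (correlations of -0.017 to 0.0921). The labels do not say that the numbers pair animals. Fat and tumour of paired animals need not deviate together, so the correlations cannot decide this. With a replicate block, 7 members were higher and 14 lower (18% and 22.8% of all rows). The median was -0.24 for members and -0.01 over all rows. Kcnt2 was lost (0.87, adjusted p = 0.0945 by limma) and Kcnq1 passed (1.70, adjusted p = 0.0371 by limma). FPKM without counts limits what can be said of members near 0.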
